A study of Mus musculus with 12 samples.

Results

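The loci described here are transcribed regions of mouse splenic B cells to which the deposited table gives a position and a level but no gene name, and whose mean level over the 9 libraries of CpG-treated cells was at least 1 FPKM, a level that counts fragments scaled by transcript length and by the fragments mapped in the library. There were 996 such loci among 8337 unnamed loci, in a table of 28019 entries. Because the 9 CpG libraries chose them, their level after CpG and its difference from the control are given as descriptions without a test. Differences between the CpG classes come from a fit over all features, but they are not free of the rule either, since a locus could enter through a high level in 1 class alone. The mean reached 1 FPKM in each of the 3 classes at 740 loci, and in CpG-A alone at 125. RNA was from splenic B cells of BALB/c mice, aged 42 to 49 days after birth, kept in culture for 24 h in RPMI-1640 with 10% fetal bovine serum and 1% penicillin/streptomycin. The treated groups were given CpG oligodeoxynucleotides (ODNs) at 1 µM, either class A, class B or class C, and each of these 3 groups and the control group held 3 libraries. The labels do not say what the control wells received, how the B cells were purified, or whether a group's libraries stem from different cultures or animals. The p-values thus reflect the spread between libraries alone, which may be technical. Each locus is called by the end of its identifier in the table, G001994 standing for BGI_novel_G001994, and positions are on mm10 as deposited.

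CpG ODNs are synthetic DNAs with unmethylated CpG motifs that activate B cells through the endosomal receptor TLR9. A B cell joins V, D and J segments of the heavy-chain locus Igh, and V and J segments of a light-chain locus, Igk (kappa) or Igl (lambda), to a constant region. From 1 heavy-chain primary transcript a resting B cell makes both IgM (constant gene Ighm) and IgD (Ighd) on its surface. Cells on the way to antibody secretion use an earlier poly(A) site of Ighm, so that the secretory tail replaces the membrane anchor. Processed pseudogenes are copies of spliced mRNAs set back into the genome, and genes with abundant mRNAs, such as those of ribosomal proteins, have many of them.

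Sequences from GENCODE M21 transcripts of the same build (GRCm38) show what tells the unnamed heavy-chain loci apart. The secretory and the membrane form of Ighm share the constant exons and part at the same base, and their coding ends are shown with the last shared bases in lower case and the bases of each form alone in capitals, beside the coding end of membrane Ighd with its membrane exons in capitals. All 3 are read from the minus strand of chromosome 12. The secretory end lies at chr12:113420867-113420958, the membrane end is spliced from within chr12:113418826-113420958, and the Ighd end from within chr12:113407535-113414301.
Ighm secretory coding end: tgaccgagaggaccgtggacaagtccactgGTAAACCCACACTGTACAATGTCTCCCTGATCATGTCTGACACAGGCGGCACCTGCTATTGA
Ighm membrane coding end: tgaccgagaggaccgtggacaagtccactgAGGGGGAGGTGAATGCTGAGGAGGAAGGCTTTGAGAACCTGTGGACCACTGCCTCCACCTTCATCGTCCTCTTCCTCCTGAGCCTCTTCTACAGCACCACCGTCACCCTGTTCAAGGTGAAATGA
Ighd membrane coding end: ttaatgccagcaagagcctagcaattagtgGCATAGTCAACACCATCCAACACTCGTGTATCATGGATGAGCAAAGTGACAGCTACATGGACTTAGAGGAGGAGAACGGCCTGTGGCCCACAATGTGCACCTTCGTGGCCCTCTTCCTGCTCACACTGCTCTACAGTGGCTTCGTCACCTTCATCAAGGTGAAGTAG

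Of the 31 unnamed kappa loci, 27 started at V genes of the Igkv3 family. The first 48 coding bases of 6 of these V genes, on the plus strand of chromosome 6, are shown with capitals where a base is not the commonest at its position. Those of Igkv3-10 (chr6:70572633-70572680) and Igkv3-5 (chr6:70663298-70663345) were identical, and Igkv3-2 (chr6:70698468-70698515) had 3 capitals, the most of the 6.
Igkv3-1: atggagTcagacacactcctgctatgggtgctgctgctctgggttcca
Igkv3-2: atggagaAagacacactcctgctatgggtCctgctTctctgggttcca
Igkv3-4: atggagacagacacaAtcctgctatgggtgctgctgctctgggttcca
Igkv3-5: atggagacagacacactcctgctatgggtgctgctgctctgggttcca
Igkv3-10: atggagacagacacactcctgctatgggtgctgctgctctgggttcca
Igkv3-12: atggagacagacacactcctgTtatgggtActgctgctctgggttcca

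The pseudogene loci are shown by 3 of the highest with the coding genes they resemble, in a 60-base coding stretch that holds the most mismatches, which are in capitals. Rps6-ps4 (chr2:75191763-75191822, minus strand) had no mismatch to Rps6, a protein of the small ribosomal subunit, in these bases or in its 750 aligned bases. Gm15772 (chr5:3236548-3236607, plus strand) had 1 mismatch to Rpl26 and Gm8730 (chr8:102865352-102865411, minus strand) had 3 to Rplp0, both proteins of the large subunit. Reads from such copies and from their parent genes cannot be told apart where the bases are the same.
Rps6-ps4: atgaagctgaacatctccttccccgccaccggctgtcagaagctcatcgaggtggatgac
Rps6: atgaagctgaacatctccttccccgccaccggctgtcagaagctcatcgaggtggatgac
Gm15772: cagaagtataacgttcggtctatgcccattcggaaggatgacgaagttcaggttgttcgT
Rpl26: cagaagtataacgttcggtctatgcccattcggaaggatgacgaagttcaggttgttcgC
Gm8730: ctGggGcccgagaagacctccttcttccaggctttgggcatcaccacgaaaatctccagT
Rplp0: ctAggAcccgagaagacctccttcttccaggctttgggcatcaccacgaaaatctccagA

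Low FPKM values lay on steps of whole fragments that placed the depth at about 14.2 to 17.5 M fragments in the controls, 21.3 to 22.4 under CpG-A, 24.7 to 25.1 under CpG-B and 24.8 to 25.3 under CpG-C. Some libraries stood apart within their groups. The third libraries of CpG-B and CpG-C had 118 and 113 FPKM of Jchain, the joining chain of secreted IgM and IgA, against 24.8 to 32.3 in the other 4, and the unnamed locus over Xist (G008277), a noncoding RNA of the inactive X chromosome, had 15.8 and 24.1 FPKM there against 54.9 to 63.5. The summed level of 7 B cell markers, among them Cd79a and Ms4a1, was 4001 to 4286 FPKM in the controls and 2602 to 3535 in the CpG groups. The summed levels of 5 measured T cell markers were 3.21 to 4.64 FPKM in the controls, 1.8 to 2.78 under CpG-A and at most 0.88 in the other classes. Those of 5 monocyte and macrophage markers, of which Adgre1 and Cd68 made up most, were 9.22 to 12.1, 16.6 to 17.5 and at most 7.26 FPKM in the same order. The higher sum under CpG-A lay in Adgre1 (6.51 and 11.8 FPKM in the means) and Cd68 (3.59 and 5.13), while Csf1r, Cd14 and Lyz2 had 0.24 to 0.343 in the controls and 0.08 to 0.0967 under CpG-A. None of these markers was at 0 in all libraries, and the part of other cell types in the levels of the unnamed loci was not tested.

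Most of the loci lay on genes that an annotation does know. By the GENCODE gene with the most exon overlap, 256 of the 996 (25.7%) lay on pseudogenes, 176 on exons of long noncoding RNA genes, 91 on exons of protein-coding genes and 72 within the immunoglobulin loci. A further 151 touched an annotated gene with an exon overlap under 20% of their transcript length or none. Another 248 (24.9%) overlapped no annotated gene, 1 lay over a miRNA, and 1 covered the first 6943 bases of the mitochondrial genome (G008013, 2744 ± 233 FPKM in the controls and a CpG mean of 3117). Exon overlap was counted between start and end on either strand, so in spliced loci it may lie in their introns. Of all 8337 unnamed loci 59.4% overlapped no annotated gene. The 996 were unspliced in 57.0% and had no strand in 28.6%, against 91.3% and 78.7% of all unnamed loci. The 72 immunoglobulin loci and the 256 pseudogene loci made up 24.1% and 48.3% of the summed CpG level.

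The median level of the 996 loci was 6.42 FPKM in the controls, 3.97 under CpG-A, 2.43 under CpG-B and 2.23 under CpG-C. For the 7341 unnamed loci under the threshold it was 1.67, 0.317, 0.06 and 0.0433 FPKM. The CpG mean was above the control mean at 417 of the 996 loci and not above it at 579. All 9 CpG libraries stood above all 3 controls at 136 loci, where 20.1% of all 15853 features tested did so, and below all 3 at 390, where 43.8% did so. Since the rule used these libraries, nothing is read from these counts. In bulk RNA, fewer cells of a type and less RNA per cell cannot be told apart.

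**Figure D1:**
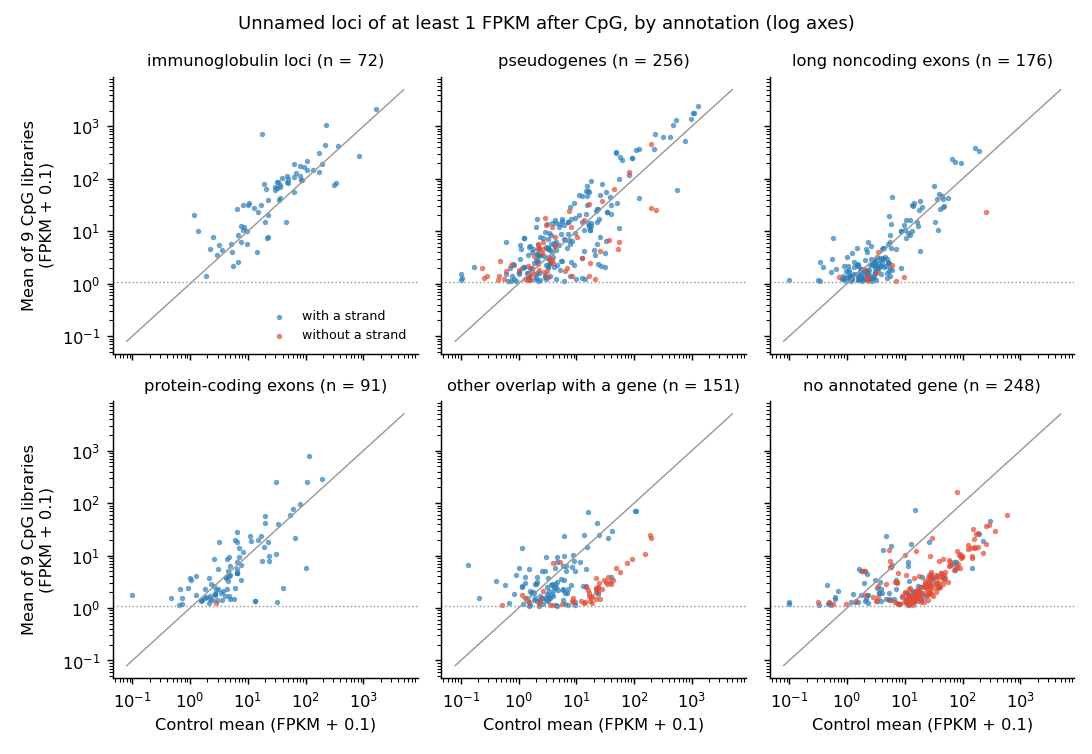
Mean level of each unnamed locus in the 3 control libraries (x) against the 9 CpG libraries (y), in FPKM + 0.1 on log axes, for the 6 main annotation classes. Each point is a locus, the line marks equal levels and the dotted line the threshold of 1 FPKM. Most of the 72 immunoglobulin loci lie on or above the line, and most of the 248 loci without an annotated gene lie below it.

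Differences between the CpG classes were tested with limma over all 15853 features that passed a filter on low values, among them all 996 loci, and a locus is called higher or lower at an adjusted p under 0.05. Between CpG-B and CpG-A, 155 of the 996 loci were called higher (beside 13.1% of all features) and 381 lower (beside 31.5%), 536 in all (beside 44.6%). Between CpG-C and CpG-A, 128 were called higher (beside 11.4%) and 359 lower (beside 29.3%), 487 in all (beside 40.7%). Under this filter the median log2 difference of the loci was -0.25 between CpG-B and CpG-A and -0.23 between CpG-C and CpG-A. Over all features it was -0.24 and -0.22. This nearness depended on the filter. With a filter at 5 FPKM the medians of the loci were -0.59 and -0.48, beside -0.12 and -0.10 over all features. With no filter on low values they were -0.25 and -0.23, beside -0.11 and -0.11. Under median-of-ratios scaling the medians of all features stood at 0.02 and 0.04, and those of the loci at -0.06 and -0.05. Between CpG-B and CpG-A 217 loci were then called higher and 302 lower, 519 in all (beside 6236 of 14801 features). Between CpG-C and CpG-A 198 were called higher and 302 lower, 500 in all (beside 5902 of 14801). Among the 740 loci that reached 1 FPKM in each class, 120 were called higher and 227 lower between CpG-B and CpG-A, and 96 and 215 between CpG-C and CpG-A. The share over features held to the same threshold was not taken, so nothing is read from these counts against all features. Between CpG-B and CpG-A, 2 (2.2%) of the 91 protein-coding exon loci were called higher and 25 (27.5%) lower. Of the 151 loci with little or no exon overlap 12 (7.95%) were higher and 76 (50.3%) lower. Of the 256 pseudogene loci 53 (20.7%) were higher and 44 (17.2%) lower. Between CpG-C and CpG-A these counts were 3 (3.3%) and 22 (24.2%), 12 (7.95%) and 72 (47.7%), and 45 (17.6%) and 40 (15.6%). Of the 151, 30 reached 1 FPKM in CpG-A alone. Shares of all 15853 features are above. The other main classes follow in turn.

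**Figure D2:**
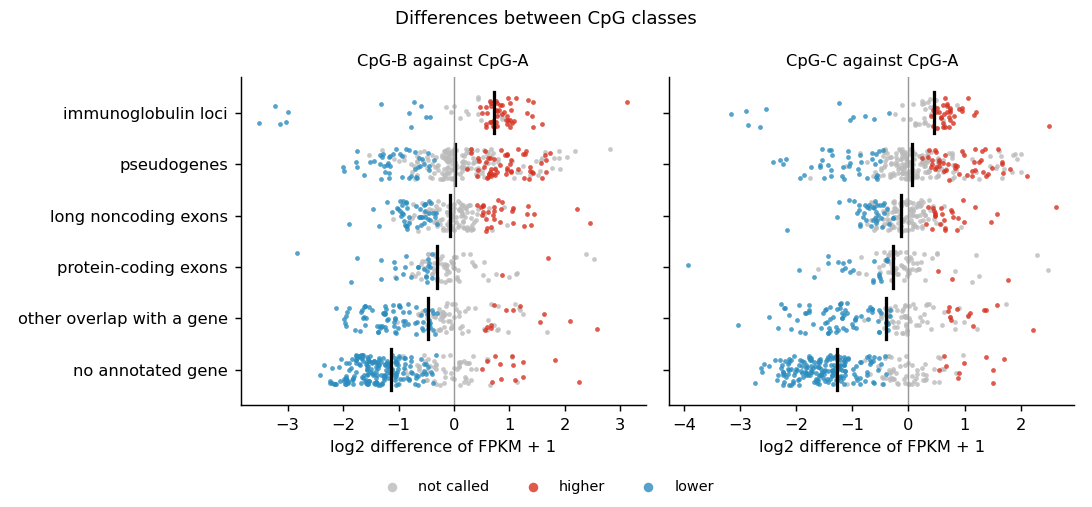
log2 difference of FPKM + 1 between CpG-B and CpG-A (left) and CpG-C and CpG-A (right) for each unnamed locus, by annotation class. Each point is a locus, coloured by limma's call at an adjusted p under 0.05, and black bars are medians. The medians run from 0.71 and 0.45 at the immunoglobulin loci to -1.14 and -1.27 where no gene is annotated.

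The heavy-chain loci fell into groups by their 3′ ends. Of 21 within Igh, all on the minus strand, 5 ended at chr12:113406605, 1 base from the annotated end of the Ighd transcript Ighd-202, and 10 at chr12:113418458, 100 bases past the end of the membrane transcript Ighm-202. A further 3 ended at chr12:113420746, 5 bases from the end of the secretory transcript Ighm-201, 1 at Igha and 2 at V segments. The table lists none of the constant genes looked for (Ighm, Ighd, Igkc and others) as known genes. The loci of a group share exons, and the labels do not say how reads were divided among them, so their sum is firmer than each level. The reference is of C57BL/6J and the cells of BALB/c, which carry other alleles of these loci.

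The Ighd loci were far lower under CpG-B and CpG-C than under CpG-A. Their summed level was 1282, 1161 and 1396 FPKM in the controls, 951, 894 and 997 under CpG-A, 88.1, 88.7 and 78.5 under CpG-B, and 130.2, 118.6 and 86.6 under CpG-C. Every library of classes B and C was thus lower than every one of class A. All 5 loci were called lower in both comparisons, the highest of them, G001975 (chr12:113406605-113429184), by a log2 difference of -3.52 ± 0.11 (SE, limma, adjusted p = 4.0e-09) under CpG-B and -3.16 ± 0.11 (adjusted p = 2.3e-08) under CpG-C. Its levels were 836, 780 and 929 FPKM in the controls, 674, 630 and 718 under CpG-A, 56.7, 59.7 and 57.4 under CpG-B and 86.3, 77.6 and 61.0 under CpG-C. G001974 (chr12:113406605-113415005), the shortest of the 5, went from 343 ± 27.6 FPKM (SD, n = 3) in the controls and 199 ± 10.98 under CpG-A to 20.7 ± 3.74 under CpG-B and 27.3 ± 7.11 under CpG-C. The other 3, G001976, G001977 and G001978, were at 18.7 to 35.8 FPKM under CpG-A and 1.35 to 5.49 under CpG-B or CpG-C as group means.

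The loci that ended at the Ighm secretory tail, the short capital stretch shown above, were the other extreme. Their summed level was 263, 196 and 270.4 FPKM in the controls, 620.1, 691 and 751 under CpG-A, 2115, 2183 and 3729 under CpG-B, and 1725, 1673 and 2660.2 under CpG-C. No CpG-A library reached any CpG-B or CpG-C library, and the third library was the highest in both of those groups. G001994 (chr12:113420746-113476150) was measured at 12.3, 15.9 and 23.5 FPKM in the controls, 79.0, 118.0 and 197.6 under CpG-A, 766, 818 and 1992 under CpG-B, and 553, 481 and 1295 under CpG-C. Its log2 difference from CpG-A was 3.12 ± 0.46 (SE, limma, adjusted p = 0.00029) under CpG-B and 2.51 ± 0.46 (adjusted p = 0.0015) under CpG-C, the first being the highest difference of any called locus. Without the third CpG-B library the first was 2.68 (adjusted p = 0.00098), and without the third CpG-C library the second was 2.06 (adjusted p = 0.0045). G001995 (chr12:113420746-113483005) had 225 ± 39.2 FPKM (SD, n = 3) in the controls and 539 ± 16.7 under CpG-A, and it was higher under CpG-B at 1461 ± 217 (limma, adjusted p = 1.1e-05) and under CpG-C at 1221 ± 104 (adjusted p = 6.7e-05). The third locus of this end, G001993, stood at 0.22, 0 and 2.94 FPKM in the controls and at 15.5 to 25.6 in the CpG libraries, and was not called between classes (limma, adjusted p = 0.28 and 0.40).

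The loci of the Ighm membrane end differed less. They summed to 2177, 2048 and 2177 FPKM in the controls, 2331, 2304 and 2291 under CpG-A, 3372, 3400.3 and 3256 under CpG-B, and 3148, 3112 and 2430 under CpG-C. Of the 10, 6 were called higher under CpG-B than under CpG-A and 5 under CpG-C, and none lower. The highest, G001981 (chr12:113418458-113431015), had 1633 ± 72.4 FPKM (SD, n = 3) in the controls, 1742 ± 71.6 under CpG-A, 2481 ± 129 under CpG-B and 2096 ± 393 under CpG-C, with adjusted p-values by limma of 0.0073 for CpG-B and 0.12 for CpG-C against CpG-A. G001991 of the same end (chr12:113418458-113482998) had 312 ± 29.9 FPKM under CpG-A, 534 ± 60.5 under CpG-B and 491 ± 18.7 under CpG-C (limma, adjusted p = 0.00024 and 0.00091).

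The share of the secretory end in the sum of both Ighm ends set the groups in an order. It was 8.72% to 11.05% in the controls, 21.02% to 24.7% under CpG-A, 38.6%, 39.1% and 53.4% under CpG-B, and 35.4%, 35.0% and 52.3% under CpG-C. The ranges of the controls, CpG-A and the other 2 groups did not overlap, and CpG-B and CpG-C overlapped. An exact two-sided permutation test gave p = 0.1 for CpG-B against CpG-A and for CpG-C against CpG-A, the smallest that 3 against 3 libraries allow, and p = 0.5 for CpG-C against CpG-B. The Ighd sum was 0.518 to 0.570 of the Ighm sum in the controls, 0.298 to 0.328 under CpG-A, 0.0112 to 0.0161 under CpG-B and 0.0170 to 0.0267 under CpG-C, and here too the exact permutation p was 0.1 in each of the 3 comparisons between classes.

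**Figure D3:**
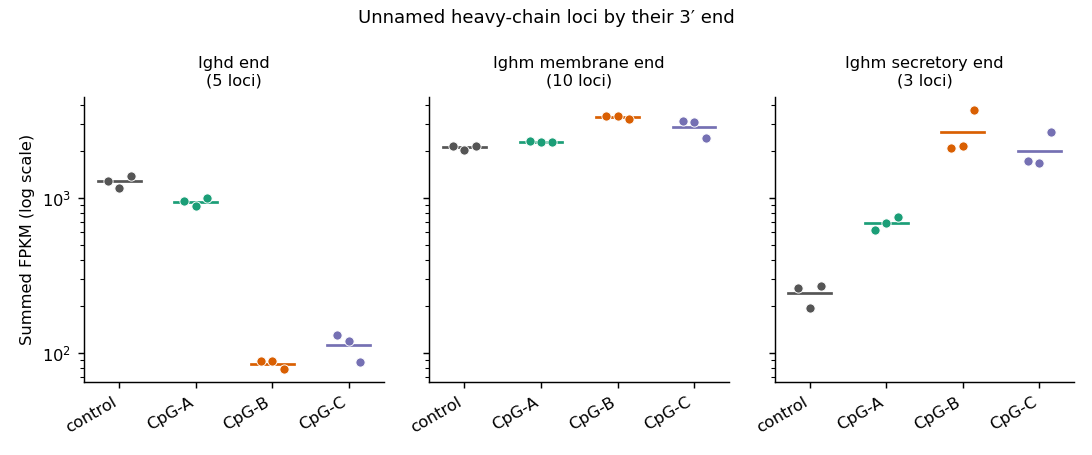
Summed FPKM (log axis) of the unnamed heavy-chain loci that end at Ighd (5 loci), at the membrane end of Ighm (10) and at its secretory end (3), in each of the 12 libraries. Points are libraries and bars are means of 3. With CpG-B and CpG-C the Ighd end lies at 78.5 to 130.2 FPKM and the secretory end at 1673 to 3729.

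The single unnamed locus at Igha, the constant gene of IgA, was near the threshold in most libraries. G001973 (chr12:113258618-113265124) had 1.48 to 2.79 FPKM in the controls, 1.76 to 2.14 under CpG-A, 2.94, 2.47 and 13.7 under CpG-B, and 2.74, 3.23 and 8.80 under CpG-C. The third libraries of CpG-B and CpG-C alone were above 3.23, and the locus was not called between classes. The 2 loci at V segments, G001996 over Ighv14-2 (chr12:113994372-113994952) and G001997, which reaches Ighv14-3, summed to 114.0 to 152.9 FPKM in the controls, 130.8 to 161.5 under CpG-A, 255.2 to 266.6 under CpG-B and 224.9 to 230.6 under CpG-C. Both were called higher under CpG-B and under CpG-C than under CpG-A.

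Within Igk, 27 of the 31 loci ended at the kappa constant gene Igkc, and these form the longest run of the set, with no gap over 10 kb between neighbours (chr6:70517187-70727055). They summed to 1492, 1553 and 1606 FPKM in the controls, 1894, 1969 and 2000 under CpG-A, 3179, 3139 and 4334 under CpG-B, and 2699, 2666 and 3227 under CpG-C. Each class thus stood above the controls in every library, and CpG-B and CpG-C above CpG-A. Of the 27, 24 were called higher under CpG-B than under CpG-A and 16 under CpG-C, and none lower.

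The kappa loci of different V genes differed in how far CpG-A stood from the control. At the 4 loci that start at Igkv3-4 the sum was 368 ± 11.99 FPKM (SD, n = 3) in the controls and 294 ± 14.7 under CpG-A, the only V gene of the 7 with a lower CpG-A mean. At the 5 loci of Igkv3-7 it was 186 ± 11.96 and 333 ± 17.4, and at the 5 of Igkv3-2 204.0 ± 14.9 and 353 ± 9.44. With CpG-B every V gene's sum was above its CpG-A sum, from 27.3 ± 4.41 FPKM against 17.7 ± 0.821 at Igkv3-1 to 838 ± 128 against 427 ± 22.5 at Igkv3-10. The highest single locus, G006508 (chr6:70572587-70727055), reads from Igkv3-10 to Igkc and had 166, 182 and 159 FPKM in the controls, 207, 206 and 171 under CpG-A, 346, 370.4 and 488 under CpG-B, and 296, 277 and 404 under CpG-C. It was higher by a log2 difference of 1.03 ± 0.16 (SE, limma, adjusted p = 0.00035) under CpG-B and 0.73 ± 0.16 (adjusted p = 0.0040) under CpG-C than under CpG-A. The next 5 in level, G006501 from Igkv3-12, G006524 and G006522 from Igkv3-2, G006507 from Igkv3-10 and G006517 from Igkv3-4, were all called higher under CpG-B than under CpG-A, from 180.0 ± 29.4 FPKM at G006517 to 269 ± 64.6 at G006501, and all but G006517 also under CpG-C. The CpG-C call of G006501 was lost without the first CpG-A library (limma, adjusted p = 0.0504). How reads were divided among these overlapping loci was not tested.

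**Figure D4:**
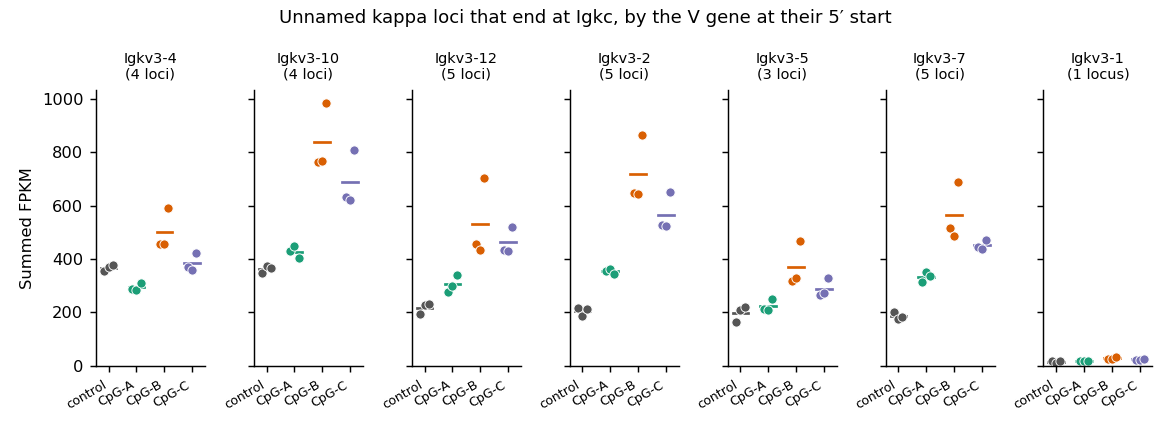
Summed FPKM of the 27 unnamed kappa loci that end at Igkc, by the V gene at their 5′ start, in each of the 12 libraries. Points are libraries and bars are means of 3. All 7 V genes have their highest mean under CpG-B, and the third CpG-B library is above the other 2 at each of them.

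The remaining 4 kappa loci covered V genes alone and did not share 1 pattern. G006493 (chr6:68680240-68682192) over Igkv10-95 had 377, 302 and 241 FPKM in the controls, 125, 109 and 95.1 under CpG-A, 59.4, 58.2 and 67.2 under CpG-B and 50.7, 50.3 and 56.6 under CpG-C. It was called lower under CpG-B and under CpG-C than under CpG-A, the only kappa locus that was. G006498 over Igkv8-30, G006491 over Igkv2-116 and G006495 over Igkv4-51 were called higher under CpG-B than under CpG-A, at 30.8 to 46.4, 13.8 to 16.9 and 11.3 to 16.4 FPKM against 14.9 to 18.04, 7.49 to 11.4 and 7.27 to 7.82.

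The lambda loci split by the constant gene at their end. The 8 that run from Iglv1 to Iglc1 summed to 76.5, 61.3 and 82.0 FPKM in the controls, 141.4, 135.9 and 141.5 under CpG-A, 280.0, 282 and 347 under CpG-B, and 243, 233 and 259 under CpG-C. The groups of CpG-A and of CpG-B and CpG-C did not overlap, and 6 of the 8 were called higher and 1 lower in each comparison. The highest of them, G003151 (chr16:19060606-19085519), had 18.9 ± 2.99 FPKM (SD, n = 3) in the controls and 41.0 ± 2.11 under CpG-A, against 112 ± 11.8 under CpG-B (limma, adjusted p = 2.0e-06) and 86.6 ± 4.34 under CpG-C (adjusted p = 3.0e-05). The 2 loci from Iglv2 to Iglc2 summed to 403 ± 43.0 FPKM in the controls, 392 ± 8.50 under CpG-A, 544 ± 96.2 under CpG-B and 440 ± 29.6 under CpG-C, and 1 of them, G003162, was called higher under CpG-B. None of the 3 that end at Iglc3, which summed to 234 ± 19.2, 217 ± 13.3, 275 ± 49.4 and 231 ± 24.6 FPKM, was called between classes, the highest of them being G003156 and G003157. On the plus strand, opposite to these genes, 6 loci crossed the region, and 5 of them were called lower and 1, G003164, higher under CpG-B than under CpG-A, the lower ones such as G003163 with 5.61, 5.78 and 10.3 FPKM under CpG-A and 2.81, 2.77 and 1.27 under CpG-B.

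Over all 72 immunoglobulin loci, 45 (62.5%) were called higher and 12 (16.7%) lower under CpG-B than under CpG-A, beside 13.1% and 31.5% of all features. Under CpG-C 33 (45.8%) were higher and 11 (15.3%) lower, beside 11.4% and 29.3%. All 72 reached 1 FPKM in each class. Of a list of 20 immunoglobulin and secretory genes, 8 were known genes of the table, and 5 of these were called higher and 1 lower between CpG-B and CpG-A. Xbp1, a transcription factor of secretory cells, had 52.6 ± 2.26 FPKM (SD, n = 3) under CpG-A and 123 ± 31.5 under CpG-B, and Prdm1, the factor that drives plasma cell differentiation, 4.95 ± 0.286 and 19.0 ± 0.660. Sdc1, a surface marker of plasma cells, was lower under CpG-B, at 10.2 ± 0.762 against 1.43 ± 0.521 FPKM. Jchain was not called between CpG-B and CpG-A (limma, adjusted p = 0.15), with 17.8, 20.5 and 22.7 FPKM under CpG-A and 25.5, 24.8 and 117.9 under CpG-B.

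Pseudogene loci held the highest levels outside the immunoglobulin loci and the mitochondrial genome. Of the 256, 250 matched a protein-coding gene, with a median identity of 98.8% over the aligned stretch, 106 of them at 99% or more and 23 at 100%. Of these 250 loci, 161 lay on the strand of the pseudogene and 29 on the opposite strand, and 60 had no strand. The counts and the correlation of pairs below do not set these loci apart by strand. Their 156 parents included 32 ribosomal protein genes, the parents of 68 of the loci. The level of the parent, where the table lists it, was over 10 times that of the pseudogene locus at 142, and the pseudogene locus was the higher of the pair at 37. No minimum share of the pseudogene had to align, and the stretch covered 3.11% of Ppp4r1l-ps (to Ccdc167) and 25.7% of Zfp862-ps (to Pcnp). Some parents were thus matched by a fragment, and such matches are part of these counts. Cdh11, the match of Gm21811, had 0.05 FPKM under CpG-B, beside 18.9 at G007245 over Gm21811.

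At the top of the list the pseudogene carried nearly all of the signal of the pair. G004531 over Rps6-ps4 (chr2:75191001-75191856) had 1178, 1349 and 1298 FPKM in the controls, 1854, 1693 and 2007 under CpG-A, 2804, 2707 and 3291 under CpG-B, and 2576, 2432 and 2751 under CpG-C, while the entry of Rps6 itself had means of 5.20, 9.36, 15.9 and 16.2. The same held for G007078 over Gm15500, with 1073 ± 76.6 FPKM (SD, n = 3) in the controls and 2112 ± 172 under CpG-B beside 4.86 and 8.17 for its parent Rpl5, and for G005810 over Gm15772, with 1046 ± 93.0 and 2121 ± 184 beside 5.41 and 1.62 for Rpl26. These 3 loci were higher under CpG-B than under CpG-A by log2 differences of 0.66 ± 0.10, 0.59 ± 0.09 and 0.54 ± 0.10 (SE, limma, adjusted p = 0.00049, 0.00056 and 0.0011). The entries of the parents have levels far under those usual for ribosomal protein genes in the same table, whose median as parents was 740 FPKM in the controls. G002922 over Gm10240 and G001580 over Gm4294 stood beside their parents Rpl21 and Rpl15 in the same way, with 1513 ± 134 and 1569 ± 146 FPKM under CpG-B against 3.62 and 66.9. G007507 over Gm8730 did not, since its parent Rplp0 had 2047 FPKM beside its own 1225 ± 90.8. The calls of G002922 and G007507 between CpG-B and CpG-A (limma, adjusted p = 0.021 and 0.024) were lost without the first or second CpG-A library or the third CpG-B library, with adjusted p from 0.061 to 0.092, and that of G007507 also without the second CpG-B library (0.056). Under TPM scaling the log2 difference of G002922 was 0.15 in place of 0.31 (adjusted p = 0.13), and its call was also lost without the filter on low values (0.097), as was that of G007507 under both (0.053 and 0.060). How reads were divided within such pairs was not tested, and the levels of both are uncertain.

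**Figure D5:**
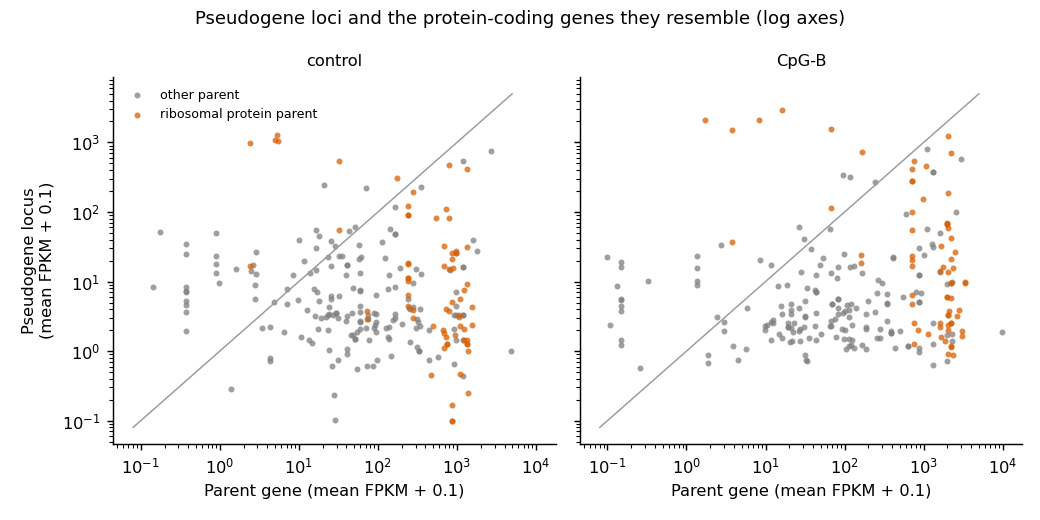
Mean FPKM + 0.1 of each pseudogene locus (y) against that of the protein-coding gene it resembles (x), on log axes, in the controls and under CpG-B. Each point is a locus whose parent is in the table, orange where the parent is a ribosomal protein gene, and the line marks equal levels. The loci over Rps6-ps4, Gm15500 and Gm15772 lie far above the line, and most of the others lie below it.

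Pseudogene loci with a ribosomal protein parent had a higher CpG mean than control mean at 57 of 68, and those with another parent at 96 of 182. Since the rule chose the loci by their CpG mean, nothing is read from these counts against the control. Between CpG-B and CpG-A, 31 of the 68 (45.6%) were called higher and 4 (5.88%) lower, beside 13.1% and 31.5% of all features. Of the 182, 22 (12.1%) were called higher and 40 (22%) lower, the former near the share of all features. The difference between these sets was not tested. The median level of the 68 was 5.96 FPKM in the controls, 6.75 under CpG-A, 14.9 under CpG-B and 14.7 under CpG-C, and that of their parents 740, 1250, 1902 and 1674. Across the 233 pairs with both members tested, the log2 differences between CpG-B and CpG-A of locus and parent had a Pearson r of 0.42, a description over pairs that share libraries and partly reads.

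Some ribosomal loci were present in certain libraries and nearly absent in others of the same group. G000630, at chr10:23763422-23787256 on the minus strand and over exons of Rps12, had 328, 8.57 and 0 FPKM in the controls, 551, 558 and 24.6 under CpG-A, 992, 1008 and 1117 under CpG-B and 975, 1064 and 895 under CpG-C. G000631, which overlaps it, had 91.5, 0 and 0.14, then 195, 205 and 3.39 in the first 2 groups and 283 to 345 in the others. In both the first control and the first and second CpG-A libraries were high and the others of these groups low, and neither was called against CpG-A (limma, adjusted p from 0.21 to 0.26). The known entry of Rps12 had means of 1100 FPKM in the controls, 1891 under CpG-A, 2613 under CpG-B and 2295 under CpG-C. How reads were divided between this entry and the unnamed loci was not tested.

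Loci on long noncoding RNA exons were called in both directions, 29 higher (16.5%) and 47 lower (26.7%) of 176 under CpG-B against CpG-A, where 13.1% and 31.5% of all features were, and 25 and 38 under CpG-C. These shares are near those of all features and are no result about this class. G002325, antisense to Gm26619 (chr13:97759872-97761624), had 155, 167 and 165 FPKM in the controls, 236, 278 and 257 under CpG-A, 439, 431 and 536 under CpG-B and 406, 433 and 464 under CpG-C, with adjusted p-values by limma of 4.5e-05 and 0.00015 against CpG-A. G005815, opposite to Gm26825 (chr5:5781499-5783636), was the other way, with 386, 401 and 661 FPKM under CpG-A, 211, 246 and 321 under CpG-B and 256, 244 and 373 under CpG-C (limma, adjusted p = 0.017 and 0.043). G005814, which shares its 3′ end, had 269, 320 and 104 FPKM under CpG-A. Snhg1, a host gene of small nucleolar RNAs, was covered by G004056, with 58.1 ± 9.15 FPKM (SD, n = 3) under CpG-A, 94.2 ± 36.2 under CpG-B and 63.2 ± 23.2 under CpG-C, and was not called against CpG-A (limma, adjusted p = 0.062 and 0.83). These 4 loci were named after their values were seen, as were the loci at Igha, Igkv8-30, Igkv2-116, Igkv4-51 and Xist.

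By the rule, G002713 on Gm10076 (chr14:105666305-105682646) was among the highest differences from CpG-A, but its CpG-A libraries differed widely, at 24.1, 24.5 and 0.57 FPKM, beside 46.1, 52.5 and 63.7 under CpG-B and 53.5, 68.9 and 61.3 under CpG-C (limma, adjusted p = 0.046 and 0.038). Without the third CpG-A library its log2 differences went from 2.45 and 2.63 to 1.11 and 1.29 (adjusted p = 0.12 and 0.081). Leaving out any CpG-B library or, for CpG-C, any CpG-C library also ended the call, as did control 2, control 3 or any CpG-C library for CpG-B, and the second CpG-B library for CpG-C. G001578 over Pgk1-rs7, a copy of the glycolytic gene Pgk1, had 2.23, 2.52 and 0.34 FPKM under CpG-A, 5.56, 6.25 and 8.64 under CpG-B and 9.35, 11.2 and 8.62 under CpG-C (adjusted p = 0.0036 and 0.00092). In both loci the third CpG-A library was the low one. G005268, which touches Rpsa-ps10 (chr3:150069314-150074434) had 0, 0 and 0.10 FPKM in the controls, 1.95, 1.29 and 0 under CpG-A, 9.62, 10.7 and 10.4 under CpG-B and 7.41, 10.5 and 6.10 under CpG-C (limma, adjusted p = 7.7e-05 and 0.00028).

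The loci that overlap no annotated gene were mostly high in the controls and low under CpG-B and CpG-C. The 162 without a strand, all unspliced, had median ratios to the control of 0.229 under CpG-A, 0.0597 under CpG-B and 0.0495 under CpG-C, where the unnamed loci under the threshold had 0.184, 0.0333 and 0.0250. Between CpG-B and CpG-A, 177 of the 248 (71.4%) were called lower and 13 (5.24%) higher, beside 31.5% and 13.1% of all features. Between CpG-C and CpG-A, 176 (71%) were called lower and 10 (4.03%) higher, beside 29.3% and 11.4%. Of these 248 loci 64 reached 1 FPKM in CpG-A alone, which the rule turns into lower levels in the other classes. Among the 151 that reached it in each class, 100 were called lower and 7 higher, and 101 and 7, and this selection too rests on the CpG libraries. The share over features held to the same threshold was not taken. G004213 (chr19:52380615-52383086), which had no strand, was measured at 641, 723 and 439.9 FPKM in the controls, 167, 138 and 84.9 under CpG-A, 26.9, 22.8 and 29.8 under CpG-B, and 19.3, 16.5 and 24.1 under CpG-C. The 3 treated groups did not overlap the controls, and CpG-A did not overlap the other 2 (limma, CpG-B against CpG-A, adjusted p = 3.6e-05). G005901 (chr5:42518075-42520131) had 102.5, 386.5 and 189.4 FPKM in the controls, 23.3 to 30.1 under CpG-A and 3.42 to 4.87 under CpG-B or CpG-C. The estimated depth was lower in the controls, and its part in these values was not tested.

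A few unannotated loci went the other way. G000410 (chr1:151326673-151331449, minus strand), 13049 bases from Ivns1abp, had 14.08, 15.96 and 14.97 FPKM in the controls, 27.7, 31.9 and 28.9 under CpG-A, 104.4, 101.1 and 116.2 under CpG-B, and 83.0, 89.8 and 82.5 under CpG-C. No group of these 4 overlapped another, and the log2 difference from CpG-A was 1.83 ± 0.08 (SE, limma, adjusted p = 3.9e-08) under CpG-B and 1.499 ± 0.081 (adjusted p = 1.6e-07) under CpG-C. G004470 (chr2:57222677-57226463), 11215 bases from Gpd2, the mitochondrial glycerol-3-phosphate dehydrogenase, was the highest of them, with 81.6 ± 3.74 FPKM (SD, n = 3) in the controls, 96.6 ± 3.51 under CpG-A, 209 ± 38.3 under CpG-B and 181 ± 15.8 under CpG-C (limma, adjusted p = 2.1e-05 and 0.00012). G006378 (chr6:29296974-29298934), 6299 bases from Fam71f2, had 3.09 to 3.61 FPKM under CpG-A, 16.3, 15.3 and 31.2 under CpG-B and 10.3, 11.9 and 18.6 under CpG-C (adjusted p = 7.9e-05 and 0.00072). The first and second of these were also named after their values were seen, as were G004213, G006493, G003163, G003164, G001996 and G001997.

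Few loci were called between CpG-C and CpG-B. Of the 996, 1 was called lower under CpG-C, where 0.0694% of all features were, and 0 were called higher by limma, where 0.114% were (0.183% either way). The 1 locus, G008045 over AC149090.1 on a scaffold (chrUn_JH584304:52219-68699), had 104, 117 and 88.6 FPKM in the controls, 16.8, 16.1 and 13.6 under CpG-A, 2, 1.23 and 0.83 under CpG-B and 0.13, 0 and 0.12 under CpG-C (limma, adjusted p = 0.022). Leaving out the second CpG-A library, the first or second CpG-B library or any CpG-C library ended this call (adjusted p from 0.054 to 0.12). Its CpG-C mean was under 1 FPKM, and among the 740 loci that reached 1 FPKM in each class limma called 0. Over all features 914 had an unadjusted p under 0.05, and the median half-width of the 95% interval of a log2 difference was 0.288. Because libraries of CpG-B and CpG-C with the same number deviated together (r = 0.59, 0.54 and 0.74 across features), the number was also used as a block. Libraries 1 and 2 of different numbers correlated as much (r = 0.51 and 0.55), and the third libraries stood apart in both classes, so whether the numbers pair the libraries is uncertain. With all 12 libraries 2 loci were then called lower. With only the 6 libraries of these classes, 859 of the loci were tested and 11 were called (1.28%, beside 0.779% of 11035 features), 3 higher and 8 lower under CpG-C, while without the block in the same 6 libraries 0 were called and 590 features had an unadjusted p under 0.05.

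The 11 loci called in the blocked fit of CpG-B and CpG-C alone include the secretory-end locus G001994, with a log2 difference of -0.62 (limma with the replicate block, adjusted p = 0.032), and 3 kappa loci that end at Igkc, G006518, G006516 and G006521, with -0.49, -0.42 and -0.44 (adjusted p = 0.032, 0.027 and 0.031). G001976 of the Ighd end was higher under CpG-C by 0.49 (adjusted p = 0.049). The loci over the small nucleolar RNA hosts Snhg1 and Snhg12 were at -0.56 and -0.39 on the log2 scale (adjusted p = 0.020 and 0.039), and those at 1700027J07Rik and the pseudogene Gm6311 at -0.65 and -0.72 (adjusted p = 0.041 and 0.027). These loci were named because they were called, after their values were seen. G008399 at Gm21887 and G002946 at Gm15387 were higher, by 0.80 and 0.45 (adjusted p = 0.024 and 0.031).

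Against the control, the largest log2 differences of the CpG mean are given as values chosen by the rule. On the high side stood G001994 and G001993 of the secretory end and G000631 on Rps12. On the low side stood G008045, G005901, G008005 (chr9:124256358-124257986), with 101.8, 181.5 and 148.8 FPKM in the controls and 1.6 to 12.03 in the CpG libraries, and G000733 at AW822073 (chr10:58221685-58230324), with 7.36, 61.5 and 26.1 FPKM in the controls and 0 to 4.96 in the CpG libraries. G000733 passed the threshold through CpG-A alone, with means of 3.19, 0.093 and 0.25 FPKM in the 3 classes, so no class difference is read from it. G006769 (chr7:9875849-9876355) was among the lowest under CpG-C against CpG-A, at 0.42, 0 and 0 against 15.0, 8.37 and 4.30 FPKM, and its CpG-C mean was under the threshold, so its difference is a description. Near the threshold the choice rested on small values: the CpG mean was 1.004 FPKM at G003877, 1.007 at G006319 and 1.008 at G003677 just inside, and 0.999 at G002225, 0.998 at G003005 and 0.997 at G006756 just outside.

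The loci are not independent of each other. Within 10 kb of another stood 374 of the 996, in 120 runs, and 622 stood alone. At 67 positions 144 loci had the same start and end, 23 of the positions holding both strands and 8 holding loci with equal values in all 12 libraries, so counts of loci are not counts of separate genes. Chromosome 1 held the most, 89, chromosome 6 75 and chromosome 2 72. A further 55 lay on scaffolds, some unplaced, such as chrUn_JH584304 (14), and some assigned to a chromosome, such as chr1_GL456211_random (11). A known gene of the table overlapped 44 loci and stood within 5 kb of another 187. The log2 difference between CpG-B and CpG-A of the locus and of that gene had a Pearson r of 0.49 over the 44 pairs that overlap and 0.16 over the 135 neighbours tested, given as descriptions over pairs from the same libraries.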

How the data were processed

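The deposited table holds FPKM values of the authors, named so in its header (per the file headers), with 2 decimals, beside columns for position and length. Tools listed, without roles, in the submitters' processing notes are RSEM 1.2.8, Bowtie2 2.2.5, StringTie, HISAT and GATK, and the build is mm10. The labels do not say whether the libraries keep strand. Of 28021 entries, 2 that name no gene were left out.

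Loci were assigned to the GENCODE M21 gene (GRCm38) with the most exon overlap, if this came to at least 20% of the transcript length. Exon bases were counted on either strand and over the whole span from start to end, the introns of spliced loci included. Bounds of the immunoglobulin loci came from RefSeq (GRCm38.p6), and any overlap counted. Pseudogene transcripts were matched to protein-coding transcripts with blastn 2.17.0, with no minimum on the share aligned. Grouping of heavy-chain loci by 3′ end, the distance allowed to a constant gene (which names the Iglc1 loci) and the sequences shown were chosen after values were seen, as was leaving out long genes. Nearest known genes leave out 5 entries that span over 2.5 M bases.

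limma 3.58.1 (R 4.3.3) was fitted with its trend method to log2(FPKM + 1) of features above 1 FPKM in at least 3 libraries, with all 12 libraries in 4 group means and with Benjamini-Hochberg adjustment over 15853 features. Differences on this scale understate low loci. On data simulated for CpG-B against CpG-A over 15853 features, 91% of log2 changes of 1 and 98% of 2 were recovered, with 7.8% false calls. The changes were placed in 100 features for each size, all with a mean log2(FPKM + 1) above 2. Recovery at lower levels, where many of the loci lie, was not measured. Depth was estimated from steps of low values, with 100 bases taken off each transcript length, and a requirement on the share of values at 1 fragment was added after first estimates were seen. Of these values 91.2% to 95.2% fell within 0.2 of a whole fragment, where chance gives 40%. Whether the replicate numbers of the titles pair CpG-B with CpG-C is uncertain. Same-numbered libraries of these classes correlated at 0.54 to 0.74 in their deviations from the group means. The first and second also correlated with each other across the classes, at 0.51 and 0.55. Between the controls and CpG-A, same-numbered libraries correlated at 0.47, -0.12 and 0.52, and the first control with the second CpG-A library at 0.46. In the remaining pairs of groups same-numbered libraries were at -0.13 to 0.05. Alternatives were pseudocount, filter, scaling, replicate block, libraries in the fit and left-out libraries. Python 3.11.15, pandas 2.3.3 and matplotlib 3.10.9 were used.

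Besides loci that the report says were named after their values were seen, loci named are the 10 highest after CpG, the 4 highest of each immunoglobulin locus, the 4 highest and 4 lowest called per class comparison (5 FPKM or more in the higher class, no overlap between libraries), the 4 highest and lowest against the control, 3 on each side of the threshold and 6 of the longest run. The loci and lists were chosen with earlier results of these data known. Of the loci this rule names, 1 is not reported here.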

Additional observations from a re-analysis of the deposited data

How the results depend on the processing

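Among the repeated tests of loci named by the rule, no direction reversed in the alternatives run: 1363 kept their side of the threshold and 65, in 10 results, lost the call, 8 of them without the filter on low values and 4 under TPM scaling. The threshold sets the number of loci, which was 740 where each class mean had to reach it, 1528 at 0.5 FPKM and 641 at 2 FPKM, and 962 to 1026 without 1 CpG library. Of the 72 immunoglobulin loci 41 lay wholly inside the bounds, and 141 loci had a known gene within 1 kb in place of 231 within 5 kb. Calls among the loci between CpG-B and CpG-A stayed within 1.5 times of 536, and those between CpG-C and CpG-A of 487. Over all features, 3977 were called between CpG-C and CpG-A with a filter at 5 FPKM, in place of 6456, and 3808 to 6859 without 1 library.

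Between CpG-C and CpG-B, 1 locus and 29 features were called. Without a filter on low values these were 0 and 19, and with only the 9 CpG libraries 0 and 12. Without 1 library they ranged from 0 to 2 loci and from 1 to 29 features. The replicate block gave 2 loci with all libraries. With only the CpG-B and CpG-C libraries it gave 11 loci and 86 features, and 0 and 0 without the block. Alternatives chosen after seeing the data were this last pair, counts among loci that reached the threshold in each class, a fit of unnamed loci only, which called 0, and one without the third library of both classes, which called 3 loci and 87 features. The replicate block changed no other call count by over 1.5 times. The cause of these changes was not tested. Depth limits values near 1 FPKM, and intervals cover the spread between 3 libraries only.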
